A study of Homo sapiens with 12 samples.

Results

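The proteasome and immunoproteasome genes were taken as the rows of the count table whose Ensembl identifier belongs to a protein-coding gene with a symbol of the form PSMA to PSMF followed by a number. The rule found 46 of 58051 rows, and 44 of these 46 were among the 17119 genes with enough counts to be tested. By role they were 7 alpha and 7 constitutive beta subunits of the 20S core, 3 induced beta subunits, 2 tissue-restricted core subunits, 9 subunits of the 19S base and 8 of its lid, and 3 chaperones of 19S assembly. The other members were the activator subunits PSME1 and PSME2, PSME3, PSME4, the regulator PSMF1, and PSMC3IP and PSME3IP1, which only share the pattern of the symbol. The cells were THP-1, a human monocytic leukaemia line, either edited at SDC3, the gene of the heparan sulphate proteoglycan syndecan-3 (KO), or wild type (WT). All cells were turned into macrophage-like cells with 20 ng/ml of the phorbol ester PMA for 24 h, and part of them then received recombinant human interferon gamma (IFN-γ) after a change of medium. The 4 groups of 3 RNA-seq libraries were KO with IFN-γ, WT with IFN-γ, KO without it and WT without it. The labels gave neither the IFN-γ dose and time nor the number of edited clones. Nothing in them states that libraries of the same group are separate cultures. The p-values therefore reflect the spread among these libraries, which may be technical.

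The proteasome degrades proteins that carry ubiquitin chains. Its 20S core is a stack of rings of alpha and beta subunits, and the 19S particle, with a base of ATPases and a lid, recognises, unfolds and feeds the substrate. The beta subunits PSMB6 (beta 1), PSMB7 (beta 2) and PSMB5 (beta 5) hold the active sites. IFN-γ is known to induce PSMB9, PSMB10 and PSMB8, which take their places in newly built cores (the immunoproteasome), and PSME1 and PSME2, which form the ring-shaped activator PA28 that can bind the core in place of 19S. The peptides made in this way feed MHC class I presentation, and macrophages carry a mixture of both kinds of core.

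Promoter windows from 250 bases before to 50 bases after the transcript starts that RefSeq lists on GRCh38.p14 were matched for 41 of the 46 genes. A short form of the element that interferon regulatory factors bind, GAAA followed by any 2 bases and GAAA again, was searched on both strands. Windows of 6 of these 41 genes held it (14.6%), against 4.38% of 27305 gene symbols with a window. The matches are printed with 10 bases on each side, since 5 of the 6 lie in the genes with the largest IFN-γ responses given further on, with the match in capitals and on the strand that reads GAAA:
PSMB8, chr6:32844032-32844061, plus strand: aggaggaagtGAAAGCGAAAgccacagatc
PSMB10, chr16:67936852-67936881, minus strand: gggtaaaggcGAAAGCGAAAgcaggaagta
PSME1, chr14:24136189-24136218, minus strand: accgcgaaggGAAAGCGAAAgcggtagggc
PSME2, chr14:24146619-24146648, minus strand: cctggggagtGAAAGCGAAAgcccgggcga
PSMA4, chr15:78540155-78540184, plus strand: atagtgaagaGAAAATGAAAggagagcgcc
PSMB4, chr1:151399495-151399524, plus strand: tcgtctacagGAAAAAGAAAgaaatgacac

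PSMB8, PSMB10, PSME1 and PSME2 shared the same 10 letters, GAAAGCGAAA, which overlap the search above by construction and were picked after the matches were seen. These letters occurred in windows of 34 of the 27305 symbols (0.125%). Counted from the start, the match lay at -4 to 6 in PSMB8, at -21 to -12 in PSMB10, at 6 to 15 in PSME1, at -28 to -19 in PSME2, at -240 to -231 in PSMA4 and at -68 to -59 in PSMB4. The window of PSMB9 held no such match, which says only that these letters are not in it, and PSMA7, PSMD4, PSMB1, PSMB7 and PSMB6 had no window in the table. A match is a description of letters, and binding was not measured.

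Each library held between 23616738 and 29426415 counts, so that 3 counts corresponded to 0.0925 to 0.130 CPM (counts per 1000000 of a library total scaled by the trimmed mean of M values, TMM). SDC3 itself averaged 239 ± 3.90 CPM in KO and 580.2 ± 9.40 CPM in WT cells with IFN-γ, and 47.3 ± 3.07 CPM in KO and 230.0 ± 29.9 CPM in WT cells without it (SD, n = 3 each), so its transcript was lower in the libraries labelled KO but still present. Of 10 monocyte or macrophage markers 9 reached 1 CPM, with a summed level of 3568 to 4382 CPM per library, while 4 T cell markers summed to at most 0.191 CPM. Low sums of other lists moved with the groups. The 4 B cell markers summed to 3.38 to 5.07 CPM in KO and 11.2 to 14.2 CPM in WT libraries, with MS4A1 at 0 in all of them and 2 of 4 reaching 1 CPM in KO and 3 of 4 in WT cells. The 4 fibroblast markers summed to 20.2 to 22.6 CPM in KO and 16.2 to 16.6 CPM in WT libraries with IFN-γ, and to 11.2 to 14.3 CPM in KO and 8.12 to 9.16 CPM in WT libraries without it, with 2 of 4 reaching 1 CPM in treated and 1 of 4 in untreated cells. The 4 epithelial markers summed to 1.76 to 2.47 CPM in KO and 2.04 to 2.48 CPM in WT libraries with IFN-γ, and to 0.258 to 0.504 CPM in KO and 1.11 to 1.85 CPM in WT libraries without it. The part of these markers in the results was not tested. A gene is called below where its adjusted p from edgeR's quasi-likelihood test over all 17119 genes is under 0.05, and folds are log2 fold changes from that fit. In bulk RNA, fewer cells of a type and less RNA per cell cannot be told apart.

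Levels per kilobase of exon spanned a wide range. In WT cells without IFN-γ, PSMA7 had 88.7 CPM per kilobase, PSMB4 84.2, PSMB3 70.3 and the 19S ubiquitin receptor PSMD4 66.7. The induced subunit PSMB9 had 3.06 CPM per kilobase in the same libraries, PSMB10 12.6 and PSMB8 26.7. With IFN-γ, PSME1 was the highest member in both genotypes, at 230.1 CPM per kilobase in KO and 199.7 in WT cells. The tissue-restricted subunits were at or near 0. PSMA8, the alpha subunit of the testis, had 0 counts in all 12 libraries, and PSMB11, the beta subunit of the thymic cortex, had 2 counts in 1 KO and 1 WT library without IFN-γ and 0 in the other 10, which is under the floor of 3 counts.

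The 3 induced beta subunits rose with IFN-γ in both genotypes, between 2.80- and 4.96-fold. Of all genes tested, 61.1% were called in KO cells (29.2% rose and 31.8% fell) and 56.5% in WT cells (28.6% rose and 27.9% fell). PSMB10 (chr16:67934502-67937087, minus strand, hg38), the induced beta 2 subunit, had 138, 129.8 and 127 CPM in KO and 110.2, 122 and 116 CPM in WT libraries with IFN-γ. Without IFN-γ, PSMB10 had 30.6, 29.9 and 27.7 CPM in KO and 20.4, 26.8 and 22.8 CPM in WT libraries. Treated and untreated libraries lay far apart in both genotypes, and all KO libraries were above all WT libraries in each condition. The response was 4.48-fold in KO (log2 fold change 2.16 with SE 0.07, adjusted p = 6.42e-24, edgeR) and 4.96-fold in WT cells (log2 fold change 2.31 with SE 0.07, adjusted p = 2.94e-24).

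PSMB8 (chr6:32840717-32844703, minus strand), the induced beta 5 subunit, had 172, 169 and 169 CPM in KO and 188, 185 and 184 CPM in WT libraries with IFN-γ. Without IFN-γ, PSMB8 had 69.7, 65.3 and 47.8 CPM in KO and 55.9, 52.4 and 52.4 CPM in WT libraries. The third untreated KO library was low, and the other two were above all untreated WT libraries. PSMB8 rose by 1.48 in log2 units in KO (SE 0.07, adjusted p = 3e-18, edgeR) and by 1.79 in WT cells (SE 0.07, adjusted p = 3e-20). PSMB9 (chr6:32844136-32859585, plus strand), the induced beta 1 subunit, had 49.3, 46.5 and 47.6 CPM in KO and 32.1, 43.6 and 42.5 CPM in WT libraries with IFN-γ. Without IFN-γ, PSMB9 had 12.8, 12.3 and 5.74 CPM in KO and 11.4, 9.13 and 7.65 CPM in WT libraries. The same untreated KO library was the lowest of all 12. PSMB9 rose by 2.22 in KO (SE 0.15, adjusted p = 2.04e-14, edgeR) and by 2.08 in WT cells (SE 0.15, adjusted p = 2.58e-13); without the low library the KO responses were 1.34 for PSMB8 and 1.93 for PSMB9.

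PSMB8 and PSMB9 lie close together on opposite strands in the MHC region of chromosome 6, where counts scattered more between replicates. Over 74 tested genes at 5 CPM or more between 28000000 and 34000000 the median SD of log2 CPM within groups was 0.141, against 0.0812 over such genes elsewhere. PSMB9 varied more than 99.6% and PSMB8 more than 86.8% of 10747 genes at this level, while PSMB10 on chromosome 16 varied more than 74.4%. TAP1, the peptide transporter gene of the same stretch, had 1832, 1312 and 938 CPM in KO and 651, 846 and 1104 CPM in WT libraries with IFN-γ. Without IFN-γ, TAP1 had 73.9, 72.1 and 74.0 CPM in KO and 43.7, 41.5 and 36.8 CPM in WT libraries. Its treated libraries differed by a wide margin within a genotype, while the third untreated KO library was not low in TAP1. The scatter's part in the values of PSMB8 and PSMB9 was not tested. Whether reads of this region were undercounted could not be settled from the counts. Levels of PSMB8 and PSMB9, including those per kilobase above, may therefore be too low.

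The constitutive subunits with the active sites had smaller responses, from 0.06 (PSMB5 in WT cells) to 0.83 (PSMB6 in KO cells). PSMB5 had 92.3, 95.6 and 94.0 CPM in KO and 82.4, 89.0 and 78.6 CPM in WT libraries with IFN-γ. Without IFN-γ, PSMB5 had 88.3, 82.6 and 82.5 CPM in KO and 77.8, 80.4 and 81.8 CPM in WT libraries. PSMB5 was called higher with IFN-γ in KO cells (log2 fold change 0.15 with SE 0.05, adjusted p = 0.00799, edgeR) and was not called in WT cells (log2 fold change 0.06 with SE 0.05, adjusted p = 0.33). The KO call was lost with at least 5 CPM in 3 libraries as the filter (adjusted p = 0.0527) and with upper-quartile scaling (adjusted p = 0.549), and with library totals alone PSMB5 was called lower in both genotypes, at -0.14 in KO and -0.19 in WT cells.

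PSMB7 had 124, 128 and 124 CPM in KO and 107, 104 and 97.2 CPM in WT libraries with IFN-γ. Without IFN-γ, PSMB7 had 96.7, 94.0 and 94.4 CPM in KO and 84.0, 86.7 and 85.2 CPM in WT libraries. It rose by 0.40 in KO and by 0.27 in WT cells on the log2 scale (SE 0.05 each), and the KO libraries were the higher ones in the untreated condition and the treated one alike. The WT rise of PSMB7 was not called with library totals alone (0.02, adjusted p = 0.759, edgeR). PSMB6 (chr17:4796144-4798503, plus strand) had 77.6, 75.1 and 73.3 CPM in KO and 105, 105 and 106 CPM in WT libraries with IFN-γ. Without IFN-γ, PSMB6 had 43.8, 41.0 and 42.3 CPM in KO and 57.5, 70.1 and 66.5 CPM in WT libraries. PSMB6 rose by 0.83 in KO (SE 0.06, adjusted p = 3.94e-14, edgeR) and by 0.70 in WT cells (SE 0.06, adjusted p = 1.06e-12), and in each condition all KO libraries were below all WT libraries.

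**Figure D1:**
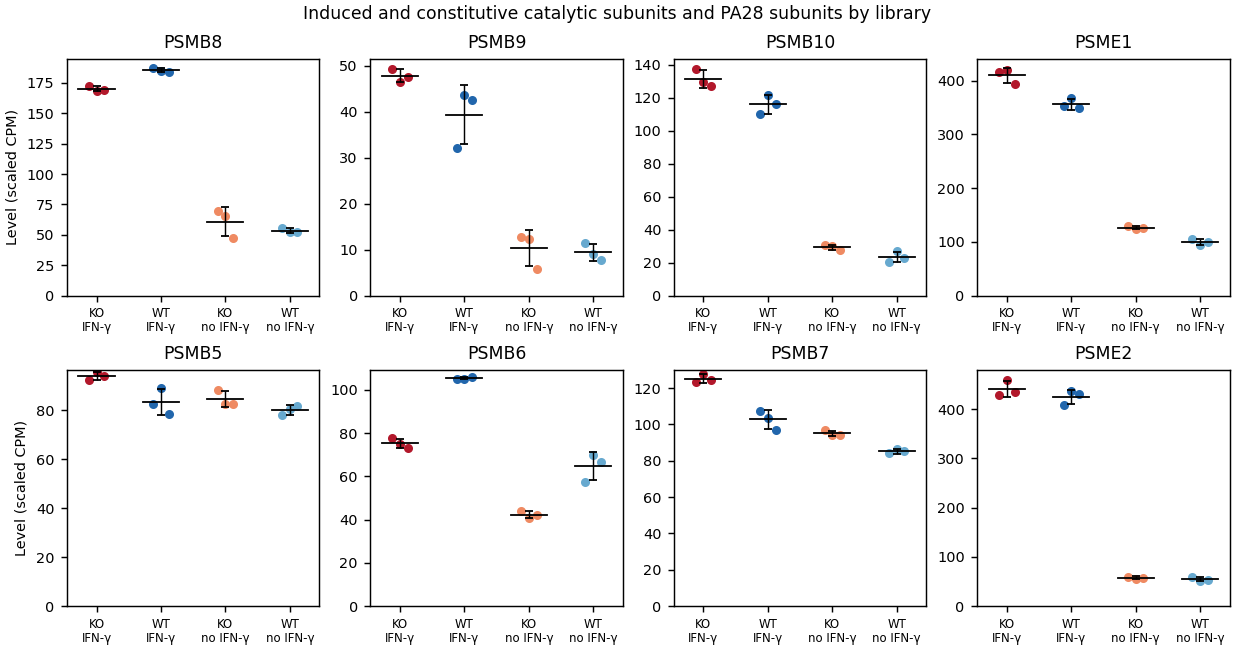
Scaled CPM (vertical axes, from 0) of the induced subunits PSMB8, PSMB9 and PSMB10, their constitutive partners PSMB5, PSMB6 and PSMB7, and the activator subunits PSME1 and PSME2 in KO and WT cells with and without IFN-γ. Points are libraries (n = 3), black lines are means and bars are SDs; the induced and activator subunits were higher in every IFN-γ library than in any untreated library.

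Within a library, the ratio of an induced subunit to the constitutive subunit of the same position does not depend on how libraries are scaled. Its level does depend on the exon length used, which multiplies each ratio by a constant and so leaves log2 differences between groups as they are. For PSMB8 and PSMB9 the level also depends on how fully reads of the MHC region were counted, so these ratios may be too low. Counts of that region also scattered more between libraries, and the part of this scatter in the group differences of these ratios was not tested. In KO cells with IFN-γ the PSMB9 over PSMB6 ratio would be 0.635 without division by length, and PSMB10 over PSMB7 1.55 over exon bases not shared with another gene. Per kilobase of all exon bases, PSMB8 stood at 1.59 ± 0.0463 of PSMB5 in KO and 1.97 ± 0.123 in WT cells with IFN-γ, and at 0.633 ± 0.107 in KO and 0.589 ± 0.0369 in WT cells without it (SD, n = 3 each). All 3 treated KO libraries lay below all 3 treated WT libraries, with ratios of 1.64, 1.55 and 1.58 in KO and 2.00, 1.83 and 2.06 in WT, a difference of -0.30 on the log2 scale. PSMB5 was itself called higher in KO cells with IFN-γ (log2 fold change 0.17), and PSMB8 was not called (-0.13). PSMB9 stood at 0.299 ± 0.00711 of PSMB6 in KO and 0.176 ± 0.0283 in WT cells with IFN-γ, and at 0.114 ± 0.0438 in KO and 0.0696 ± 0.0209 in WT cells without it. With IFN-γ the libraries did not overlap (0.299, 0.292 and 0.306 in KO and 0.144, 0.196 and 0.189 in WT, log2 difference 0.78), in the opposite direction to the PSMB8 ratio, and PSMB6 was itself lower in KO cells.

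PSMB10 stood at 1.01 ± 0.0530 of PSMB7 in KO and 1.09 ± 0.0906 in WT cells with IFN-γ, and at 0.298 ± 0.0135 in KO and 0.263 ± 0.0321 in WT cells without it (SD, n = 3 each). Genotypes overlapped for this ratio in both conditions, although PSMB10 alone was higher in KO cells. The 3 ratios stood higher in treated than in untreated libraries by 1.35, 1.47 and 1.76 on the log2 scale in KO cells and by 1.74, 1.37 and 2.06 in WT cells, in the order PSMB8, PSMB9 and PSMB10. The third untreated KO library was low, at 0.510 for the PSMB8 ratio (0.695 and 0.696 in the others). For the PSMB9 ratio it stood at 0.0639, against 0.137 and 0.142. Without it both KO differences would be smaller, and that of PSMB9 would lie below the WT one. Each of the 6 IFN-γ comparisons separated the libraries fully, with an exact permutation p of 0.1 (two-sided, 0.15 after adjustment over 12 comparisons), the smallest that 3 libraries against 3 allow. Of the 6 genotype comparisons, those of the PSMB8 and PSMB9 ratios with IFN-γ gave the same p, and the other 4 gave 0.2 to 0.8.

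**Figure D2:**
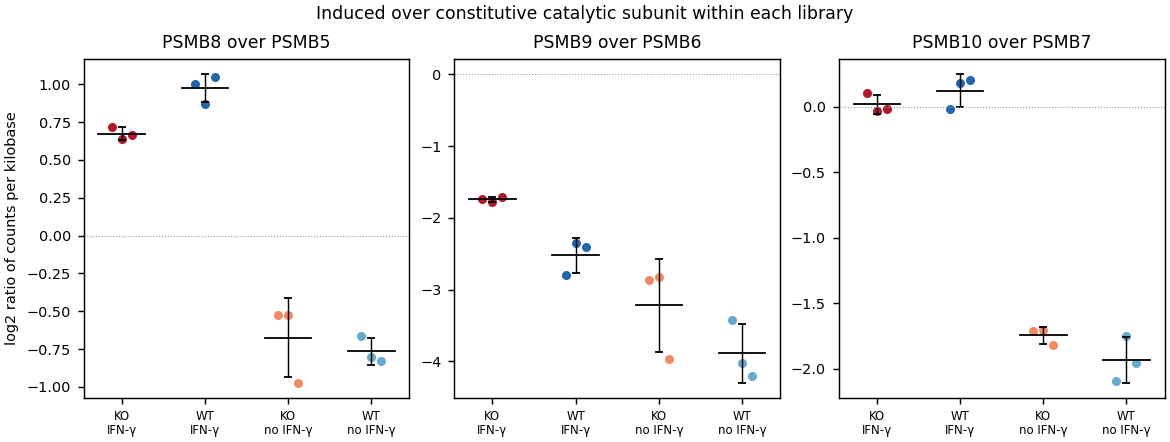
Log2 ratio of counts per kilobase (vertical axes) of each induced catalytic subunit over its constitutive counterpart, by library, in KO and WT cells with and without IFN-γ. Points are libraries (n = 3), lines are means, bars are SDs and the dotted line marks equal levels; with IFN-γ the PSMB8 ratio averaged 1.59 in KO and 1.97 in WT cells and the PSMB9 ratio 0.299 in KO and 0.176 in WT cells on the linear scale.

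PSME2 (chr14:24143362-24147570, minus strand), the beta subunit of PA28, had the largest IFN-γ response of all members. It had 429, 459.9 and 434 CPM in KO and 409, 437 and 430.0 CPM in WT libraries with IFN-γ. The untreated values were 60.0, 54.9 and 58.1 CPM in KO and 58.5, 50.8 and 53.9 CPM in WT libraries. It rose 7.65-fold in KO (log2 fold change 2.93 with SE 0.05, adjusted p = 5.89e-31, edgeR) and 7.83-fold in WT cells (log2 fold change 2.97 with SE 0.05, adjusted p = 6.26e-31), and genotypes overlapped in both conditions. PSME1 (chr14:24136158-24138967, plus strand), the alpha subunit of PA28 and a near neighbour of PSME2, had 416, 419 and 394 CPM in KO and 352, 367 and 348 CPM in WT libraries with IFN-γ. Without IFN-γ, PSME1 had 129, 123 and 126 CPM in KO and 105, 94.7 and 101 CPM in WT libraries. It rose by 1.70 in KO and by 1.83 in WT cells (SE 0.04 each), and the KO libraries were above the WT libraries in each condition.

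The other activators had small responses. PSME3, which forms the nuclear activator PA28 gamma, had 164, 168 and 159 CPM in KO and 182, 183 and 182 CPM in WT libraries with IFN-γ. Without IFN-γ, PSME3 had 146, 145 and 147 CPM in KO and 159, 169 and 172 CPM in WT libraries. Its IFN-γ response was 0.16 in KO and 0.13 in WT cells (SE 0.04 each, both called), but with library totals alone it was called lower, at -0.14 in KO and -0.12 in WT cells. With upper-quartile scaling neither was called (adjusted p = 0.369 in KO and 0.787 in WT cells), nor was the WT response without the first untreated WT library (adjusted p = 0.0514). PSME4, the large activator PA200, had 109.7, 109.7 and 110.2 CPM in KO and 101, 104 and 108 CPM in WT libraries with IFN-γ. Without IFN-γ, PSME4 had 85.7, 95.4 and 86.9 CPM in KO and 87.0, 79.0 and 83.7 CPM in WT libraries. It rose by 0.30 in KO and by 0.33 in WT cells (SE 0.05 each), and with library totals alone neither rise passed (adjusted p = 0.995 and 0.178).

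PSMF1 (chr20:1113263-1189415, plus strand) encodes PI31, first described as an inhibitor of the 20S core. It had 164, 171 and 159 CPM in KO and 170.1, 185 and 168 CPM in WT libraries with IFN-γ. The untreated values were 92.4, 85.3 and 88.2 CPM in KO and 107, 117 and 117 CPM in WT libraries. It rose by 0.89 in KO (SE 0.05, adjusted p = 8.03e-17, edgeR) and by 0.62 in WT cells (SE 0.05, adjusted p = 8.23e-13). The untreated KO libraries were all below the untreated WT libraries, while the treated libraries of the 2 genotypes overlapped.

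All 7 alpha subunits of the 20S core, which form its outer rings, rose with IFN-γ in both genotypes (median log2 fold change 0.84 in KO and 0.90 in WT cells, against -0.05 and -0.02 over all genes tested). The share that rose over all genes was 29.2% in KO and 28.6% in WT cells. PSMA4 (chr15:78540405-78552419, plus strand) stood apart from the other alpha subunits, with 334, 355 and 343 CPM in KO and 304, 300.1 and 306 CPM in WT libraries with IFN-γ. Without IFN-γ, PSMA4 had 97.0, 96.1 and 98.7 CPM in KO and 101, 93.6 and 98.5 CPM in WT libraries. Its rise of 3.54-fold in KO (log2 fold change 1.82 with SE 0.04, adjusted p = 2.32e-27, edgeR) and 3.11-fold in WT cells (log2 fold change 1.64 with SE 0.04, adjusted p = 6.06e-26) was of the size of that of PSMB8 and PSME1. The 6 largest responses in each genotype were those of PSME2, PSMB9, PSMB10, PSMA4, PSME1 and PSMB8, and 5 of these 6 genes hold a match printed above. The sixth gene with a match, PSMB4, rose by only 0.21 in KO and 0.27 in WT cells.

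PSMA3 had 131, 134 and 128 CPM in KO and 113, 129.8 and 119.8 CPM in WT libraries with IFN-γ. Without IFN-γ, PSMA3 had 65.6, 62.7 and 65.9 CPM in KO and 63.8, 61.4 and 66.3 CPM in WT libraries. The rise was 1.02 in KO and 0.92 in WT cells in log2 units. PSMA5 had 229, 237 and 223 CPM in KO and 215, 227 and 232 CPM in WT libraries with IFN-γ. Without IFN-γ, PSMA5 had 128, 121 and 135 CPM in KO and 127, 118 and 117 CPM in WT libraries. The rise was 0.84 in KO and 0.90 in WT cells in log2 units. Treated libraries lay above untreated ones throughout for both genes. PSMA2 rose by 0.87 in KO and 1.34 in WT cells on 36 to 116 counts a library, PSMA6 by 0.79 and 0.51, PSMA1 by 0.58 and 0.36 and PSMA7 by 0.45 and 0.22 (KO and WT cells in each pair). The WT response of PSMA7 was -0.03 with library totals alone, and that of PSMA1 was not called there (adjusted p = 0.227).

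Of the 7 constitutive beta subunits, all rose with IFN-γ in KO cells and 6 in WT cells, with medians of 0.57 and 0.54. Over all genes tested 29.2% rose in KO and 28.6% in WT cells. Beside the subunits with active sites, the structural subunits PSMB3 (0.83 in KO and 0.68 in WT cells), PSMB2 (0.78 and 0.76) and PSMB1 (0.57 and 0.54) rose most, and PSMB4 least. For PSMB4 the rise in KO cells was not called with upper-quartile scaling (adjusted p = 0.051) and was -0.09 with library totals alone.

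The 17 base and lid subunits of 19S had median responses of 0.22 in KO and 0.10 in WT cells, against 0.78 and 0.61 for the 14 constitutive core subunits. Of 9 base subunits, 5 rose and 1 fell with IFN-γ in KO cells, and 5 rose and 2 fell in WT cells (medians 0.13 and 0.17). The shares over all genes tested were 29.2% up and 31.8% down in KO cells and 28.6% and 27.9% in WT cells. Of the 6 ATPases that form the ring of the base, PSMC2 was the exception in size, with a rise of 0.83 in KO (SE 0.04, adjusted p = 8.92e-18, edgeR) and 0.78 in WT cells (SE 0.04, adjusted p = 7.67e-17). PSMC4 rose by 0.46 and 0.34, PSMC3 by 0.39 and 0.28 and PSMC6 by 0.25 and 0.17 in KO and WT cells. With library totals alone the WT rises of PSMC4 and PSMC3 were not called (adjusted p = 0.142 and 0.574, edgeR), nor was the KO rise of PSMC3 (adjusted p = 0.0979). PSMC1 was called in WT cells alone, at 0.26 with an adjusted p of 0.043, against 0.13 and not called in KO cells, and the difference of the responses was not called (adjusted p = 0.666). The PSMC1 call was lost with DESeq2, RLE size factors, upper-quartile scaling, library totals alone, no filter, the 5 CPM filter and the compared libraries alone (adjusted p from 0.0531 to 0.974). It was also lost without treated KO replicate 2, treated WT replicate 1, 2 or 3 or untreated WT replicate 2 (adjusted p from 0.0557 to 0.232), and the WT call of PSMC6 without untreated WT replicate 2 (adjusted p = 0.0595) and with upper-quartile scaling (adjusted p = 0.412).

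PSMC5 had 80.6, 78.6 and 75.8 CPM in KO and 78.2, 80.1 and 81.8 CPM in WT libraries with IFN-γ. Without IFN-γ, PSMC5 had 85.8, 86.7 and 81.2 CPM in KO and 85.2, 90.3 and 89.2 CPM in WT libraries. It was called lower by 0.11 in KO and by 0.14 in WT cells, and neither call was firm. The KO call was lost with DESeq2, RLE size factors, no filter, the replicate block and the compared libraries alone (adjusted p from 0.0515 to 0.134). It was also lost without treated KO replicate 2 or 3, treated WT replicate 1 or 2, untreated KO replicate 1 or 2 or untreated WT replicate 3 (adjusted p from 0.0518 to 0.196), and the WT call without treated WT replicate 1 or untreated WT replicate 2 (adjusted p = 0.0573 and 0.0502). The non-ATPase base subunit PSMD2, a scaffold, had 219, 226 and 216 CPM in KO and 204, 215 and 207 CPM in WT libraries with IFN-γ. Without IFN-γ, PSMD2 had 239, 225 and 229.8 CPM in KO and 229.7, 237 and 227 CPM in WT libraries. It fell by 0.15 in WT cells (SE 0.04, adjusted p = 0.0017, edgeR) and was not called in KO cells (-0.07), where it was called lower with upper-quartile scaling (-0.19), library totals alone (-0.37) and the 5 CPM filter (-0.12); the difference of the responses was not called (adjusted p = 0.4). PSMD1, the other scaffold, was called in neither genotype (0.06 and 0.04), and PSMD4 was called in KO (0.11, adjusted p = 0.0117) and not in WT cells (0.04), with no call for the difference of the responses (adjusted p = 0.464). The PSMD4 call was lost without the second untreated KO library (adjusted p = 0.0578) and with the 5 CPM filter (adjusted p = 0.116). Its value was -0.0049 with upper-quartile scaling and -0.18 with library totals alone.

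Of 8 lid subunits, 7 rose and 1 fell with IFN-γ in KO cells, and 3 rose and none fell in WT cells (medians 0.23 and 0.10). Over all genes tested 29.2% rose and 31.8% fell in KO cells, and 28.6% rose and 27.9% fell in WT cells. PSMD12 rose by 0.46 in KO and 0.36 in WT cells, PSMD14, the deubiquitinase of the lid, by 0.42 and 0.19, and PSMD7, its partner, by 0.25 and 0.18. PSMD8, PSMD13, PSMD6 and PSMD11 rose by 0.25, 0.22, 0.19 and 0.14 in KO cells and were not called in WT cells (0.10, 0.10, 0.09 and 0.0018). For none of these 4 genes was the difference between the genotypes called by edgeR, with adjusted p-values of 0.159, 0.267, 0.381 and 0.249.

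With upper-quartile scaling the KO calls of PSMD6, PSMD11 and PSMD13 (adjusted p = 0.175, 0.773 and 0.0716) and the WT calls of PSMD7 and PSMD14 (adjusted p = 0.28 and 0.145) were lost, and that of PSMD11 also with the 5 CPM filter (adjusted p = 0.111). Leaving out 1 library changed several of these lid calls. The KO call of PSMD11 was lost without the third treated KO library (adjusted p = 0.071) or the second untreated one (adjusted p = 0.0864). In WT cells PSMD6 was called at 0.13 without the first treated WT library, PSMD13 at 0.13 without the second untreated WT library, and PSMD8 at 0.15 without the third treated one or 0.13 without the second untreated one. PSMD3 had 138, 139 and 133 CPM in KO and 152, 152 and 143 CPM in WT libraries with IFN-γ. Without IFN-γ, PSMD3 had 156, 148 and 141 CPM in KO and 135, 153 and 148 CPM in WT libraries. It was called lower in KO cells by 0.12 (adjusted p = 0.033, edgeR), a call that was lost with DESeq2, RLE size factors and no filter (adjusted p = 0.0685, 0.0613 and 0.0522) and without treated KO replicate 1, 2 or 3 or untreated KO replicate 1 or 2 (adjusted p from 0.0611 to 0.202). Of the chaperones that help assemble the base, PSMD10 rose in KO cells (0.29, adjusted p = 0.00473; not called with upper-quartile scaling, adjusted p = 0.0862) and was not called in WT cells (-0.07), while PSMD5 (0.04 and -0.03) and PSMD9 (0.09 and -0.03) were called in neither.

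In all, 36 of the 44 tested members rose and 3 fell with IFN-γ in KO cells, and 30 rose and 3 fell in WT cells. The 2 comparisons share no library, but the KO and WT cells are one line under one treatment. How libraries are scaled mattered for the small changes: with library totals alone, which moved the median gene by -0.30 in KO and -0.25 in WT cells, 22 rose and 12 fell in KO and 16 rose and 14 fell in WT cells. Over all genes tested the split of higher and lower calls was then 2787 and 9141 in KO cells (5005 and 5451 with TMM) and 2767 and 8260 in WT cells (4896 and 4770 with TMM), and with upper-quartile scaling 3928 and 6864 in KO and 3751 and 6246 in WT cells. PSME1, PSME2, the 3 induced subunits and PSMA4 were called higher in both genotypes under every alternative run.

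**Figure D3:**
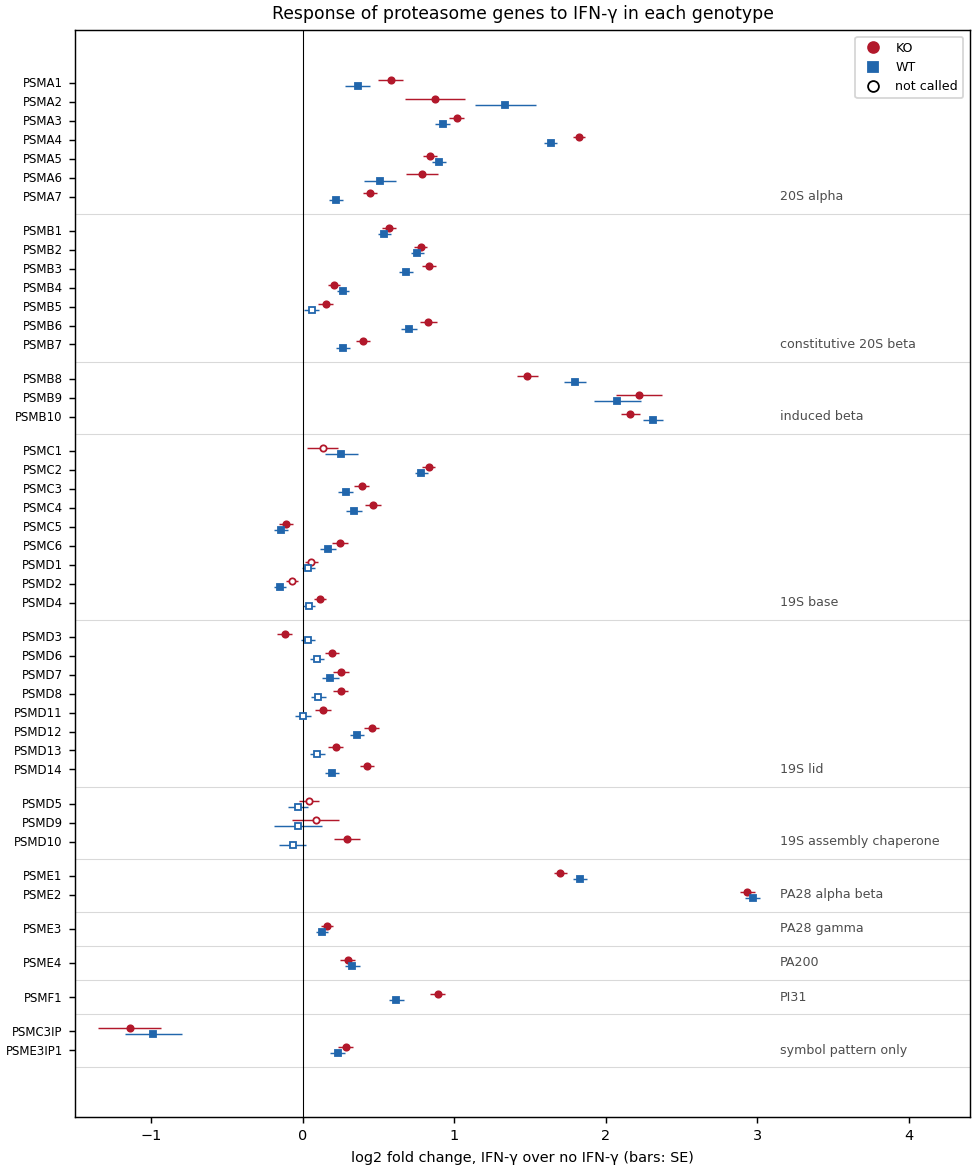
Log2 fold change with IFN-γ over no IFN-γ (horizontal axis) of the 44 tested genes, grouped by role, in KO cells (circles) and WT cells (squares). Bars are standard errors from the fit of 12 libraries and open symbols were not called at an adjusted p under 0.05; PSME2 reached 2.93 in KO and 2.97 in WT cells, while most 19S genes lay under 0.5.

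PSMC3IP and PSME3IP1 are named for proteins that bind a proteasome subunit and are not part of the particle. PSMC3IP, which acts with recombinases in meiosis, had 1.74, 1.22 and 1.99 CPM in KO and 2.24, 2.93 and 2.78 CPM in WT libraries with IFN-γ. Without IFN-γ, PSMC3IP had 3.89, 3.25 and 3.84 CPM in KO and 4.08, 6.51 and 5.10 CPM in WT libraries. It fell by 1.14 in KO (SE 0.21, adjusted p = 1.57e-05, edgeR) and by 0.99 in WT cells (SE 0.19, adjusted p = 3.39e-05), on 30 to 211 counts a library. PSME3IP1 rose by 0.28 in KO and by 0.23 in WT cells.

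KO cells with IFN-γ differed from WT cells with IFN-γ in 22 of the 44 tested members, 15 higher and 7 lower. Of all genes tested 47.2% differed, 22.9% higher and 24.3% lower. The median log2 fold change was 0.08 over the members and -0.01 over all genes, and 5 of the 14 constitutive core subunits were higher and 3 lower. With library totals alone 8 members were higher and 10 lower, and the split over all genes was 2887 higher and 5213 lower, against 3919 and 4153 with TMM. The largest rise was that of PSMD4 (chr1:151254703-151267479, plus strand), a ubiquitin receptor of the 19S base, with 338, 353 and 343 CPM in KO against 208, 216 and 199.9 CPM in WT libraries (log2 fold change 0.73 with SE 0.04, adjusted p = 3.39e-16, edgeR). PSMB4 (chr1:151399534-151401944, plus strand), which lies on the same arm of chromosome 1, had 305, 312 and 298 CPM in KO against 217, 224 and 216 CPM in WT libraries (log2 fold change 0.48 with SE 0.04, adjusted p = 1.14e-11). PSMD5, a chaperone of the 19S base, had 47.3, 51.3 and 48.8 CPM in KO against 37.5, 35.6 and 43.6 CPM in WT libraries (log2 fold change 0.34 with SE 0.07, adjusted p = 7.57e-05). For these 3 genes, picked as the largest called rises, every KO library was above every WT library. How many of all genes separated in this way was not counted.

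Lower in KO cells with IFN-γ were PSMB6 (log2 fold change -0.49 with SE 0.06, adjusted p = 8.82e-09, edgeR), PSMB2, PSME3, PSMD8, PSMA7, PSMD3 and PSMC3IP. PSMB2 had 130.4, 134 and 126 CPM in KO against 146, 148 and 145 CPM in WT libraries (-0.16, SE 0.04, adjusted p = 0.00189), and the lid subunit PSMD8 133, 129 and 123 CPM in KO against 145, 148 and 134 CPM in WT libraries (-0.15, SE 0.05, adjusted p = 0.0119). PSMA7 had 168, 167 and 161 CPM in KO against 175, 186 and 183 CPM in WT libraries (-0.13, SE 0.05, adjusted p = 0.02). Groups did not overlap for these 3 genes, which were picked by the size of their called falls, but single libraries decided 2 of the calls. The call of PSMD8 was lost without treated KO replicate 2 or 3 or treated WT replicate 2 (adjusted p from 0.0704 to 0.085), that of PSMA7 without treated KO replicate 2 or 3 or treated WT replicate 2 or 3 (adjusted p from 0.05 to 0.0978), and that of PSMD3 (-0.13) without treated KO replicate 1, 2 or 3 or treated WT replicate 1 or 2 (adjusted p from 0.0529 to 0.117), with DESeq2 (adjusted p = 0.0576) and with RLE size factors (adjusted p = 0.0525).

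Among the induced genes, PSMB10 was higher in KO cells with IFN-γ (log2 fold change 0.18 with SE 0.06, adjusted p = 0.0128, edgeR), though not without the first treated KO library (adjusted p = 0.0826) or the first treated WT library (adjusted p = 0.0875), and PSME1 was higher (log2 fold change 0.20 with SE 0.04, adjusted p = 0.000111). PSMB8 (-0.13, adjusted p = 0.135), PSMB9 (0.28, adjusted p = 0.0893) and PSME2 (0.05, adjusted p = 0.36) were not called. Several alternatives called them. PSMB8 was called lower and PSMB9 higher with the compared libraries alone (adjusted p = 0.0062 and 0.00231), with no filter (adjusted p = 0.0485 and 0.000566) and without the third untreated KO library, which is in neither group but shares the estimate of the spread (adjusted p = 0.017 and 0.0123). PSMB8 was also called lower with library totals alone (-0.21, adjusted p = 0.0158) and PSMB9 higher with limma-voom (adjusted p = 0.041), while without the first treated WT library the PSMB9 difference was 0.15 (adjusted p = 0.438). PSMB7 (0.29), PSMC2 (0.28), PSMD10 (0.33), PSMA6 (0.31), PSMC6 (0.20), PSMA4 (0.18), PSME3IP1 (0.18), PSMB5 (0.17), PSMD7 (0.13) and PSMD13 (0.12) were the other calls upward. The call of PSMD7 was lost without treated KO replicate 1, 2 or 3, treated WT replicate 1 or 2 or untreated KO replicate 2 (adjusted p from 0.0502 to 0.168), and that of PSMD13 without treated KO replicate 2 or 3 or treated WT replicate 1 or 3 (adjusted p from 0.0533 to 0.129). Both were lost with upper-quartile scaling, no filter and the 5 CPM filter (adjusted p from 0.0577 to 0.0894), and PSMD7 with the replicate block (adjusted p = 0.0524). With library totals alone the calls of PSMD7, PSMD13, PSMB10, PSMA6, PSMB5, PSMC6 and PSME3IP1 were lost (adjusted p from 0.0681 to 0.531), and PSMD14 and PSMF1 were called lower (-0.16 and -0.17). PSMA3 (0.11), not called, was called higher with DESeq2, limma-voom, RLE size factors, the compared libraries alone and without treated WT replicate 2 (adjusted p from 0.00933 to 0.049). PSMD2 was called higher with DESeq2 (adjusted p = 0.0366) and PSMB1 without treated WT replicate 3 (adjusted p = 0.0482).

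Without IFN-γ, 10 of the 44 members were higher and 10 lower in KO cells. Of all genes tested 50.1% differed, 25.4% higher and 24.8% lower. PSMD4 and PSMB4 again led the rises, with 323, 312 and 321 CPM in KO against 205, 201 and 199.6 CPM in WT libraries for PSMD4 (0.66, SE 0.04, adjusted p = 2.52e-15, edgeR) and 277, 261 and 254 CPM in KO against 184, 183 and 179 CPM in WT libraries for PSMB4 (0.54, SE 0.04, adjusted p = 6.2e-13). PSMC1 had 11.2, 9.34 and 9.71 CPM in KO against 8.54, 7.03 and 8.42 CPM in WT libraries (0.33, SE 0.10, adjusted p = 0.00818), a call lost without the first untreated KO library (adjusted p = 0.0689) or the second untreated WT library (adjusted p = 0.0774). The genes PSME1 (0.33, adjusted p = 1.13e-07) and PSMB10 (0.33, adjusted p = 0.000276) were higher in KO cells before any IFN-γ was added, as were PSMD5 (0.27), PSMC2 (0.23), PSMB7 (0.15) and PSME3IP1 (0.13). The PSME3IP1 call was lost without treated KO replicate 2, untreated KO replicate 2 or 3 or untreated WT replicate 2 (adjusted p from 0.055 to 0.248), and with DESeq2, RLE size factors, upper-quartile scaling, library totals alone, no filter and the compared libraries alone (adjusted p from 0.0518 to 0.114). Of the members not called, PSMC6 was called higher with limma-voom, the 5 CPM filter and without untreated WT replicate 1 (adjusted p from 0.00839 to 0.049). Leaving out 1 untreated library also gave calls for PSMA5, PSME2 and PSME4 (adjusted p from 0.0234 to 0.0445).

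Lower in KO cells without IFN-γ were PSMB6 (-0.61, SE 0.06, adjusted p = 1.38e-10, edgeR), PSMC3IP, PSMF1, PSMA7, PSMD14, PSMD8, PSME3, PSMB2, PSMB3 and PSMC4. The PSMC4 call (-0.17) was lost without untreated KO replicate 2 or untreated WT replicate 2 or 3 (adjusted p from 0.0594 to 0.0765). PSMF1 was lower by 0.36 (SE 0.05, adjusted p = 2.47e-07) and PSMD8 by 0.30 (SE 0.05, adjusted p = 5.13e-06). PSMA7 had 123, 120.0 and 122 CPM in KO against 144, 166 and 156 CPM in WT libraries (-0.35, SE 0.05, adjusted p = 1.1e-07). PSMD14 had 57.6, 55.3 and 55.9 CPM in KO against 69.6, 70.1 and 69.9 CPM in WT libraries (-0.31, SE 0.05, adjusted p = 1.59e-06). Both genes were low in all 3 KO libraries. PSMC3IP was lower by 0.52 (adjusted p = 0.0134) and by 0.68 with IFN-γ (adjusted p = 0.0111), with groups that did not overlap. The first call was lost without untreated KO replicate 2 or untreated WT replicate 2 (adjusted p = 0.0698 and 0.167), with -0.33 left in the absence of the WT library, and the other without treated KO replicate 2 or treated WT replicate 2 (adjusted p = 0.0997 and 0.0526).

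PSMB8 was called higher in KO cells without IFN-γ (log2 fold change 0.19 with SE 0.07, adjusted p = 0.0389, edgeR), with overlapping groups, and PSMB9 was not called (0.13, adjusted p = 0.552). The PSMB8 call was lost with DESeq2, limma-voom, RLE size factors, upper-quartile scaling, library totals alone and the compared libraries alone (adjusted p from 0.0529 to 0.206). It was also lost without treated KO replicate 2, untreated KO replicate 1 or 2 or untreated WT replicate 2 or 3 (adjusted p from 0.0567 to 0.392), with 0.08 left without the first untreated KO library. Without the third untreated KO library PSMB8 was higher by 0.33 (adjusted p = 2.77e-06) and PSMB9 by 0.43 (adjusted p = 0.00637). The PSMB9 value was -0.0437 without the first untreated KO library, -0.0280 without the second and 0.0047 without the third untreated WT library, so single libraries decided its sign and size.

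PSMD4, PSMB4 and PSMB6, with the largest genotype differences among the particle's own genes, lie among neighbours that differ in the same direction. The 20 nearest tested genes around PSMD4 had a median log2 fold change of 0.31 with IFN-γ and 0.38 without it, with 13 and 14 called higher, and those around PSMB4 had 0.29 and 0.26, with 12 called higher in each condition. The 2 neighbourhoods overlap. The 20 neighbours of PSMB6 on chromosome 17 had medians of -0.47 with IFN-γ and -0.33 without it, with 15 and 12 called lower and none higher. PSMB6 itself (-0.49 and -0.61) was close to its neighbours with IFN-γ. PSMF1 on chromosome 20 lay among neighbours with medians of -0.40 and -0.22, and PSMB7 on chromosome 9 among neighbours at 0.20 and 0.29. The neighbours of PSMD5, also on chromosome 9, stood at 0.12 and 0.15, and those of PSMB10 at -0.01 and 0.19. Without IFN-γ, 9 of the 20 around PSMB10 were called higher and 1 lower, against 25.4% and 24.8% of all genes tested. By contrast the neighbours of PSME1 stood at 0.10 and 0.07, and those of PSMC3IP at 0.02 and -0.02. PSMB8 and PSMB9 lay among MHC neighbours with medians of -0.32 with IFN-γ and -1.46 in its absence. How far the neighbourhood bears on the genotype differences was not tested.

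**Figure D4:**
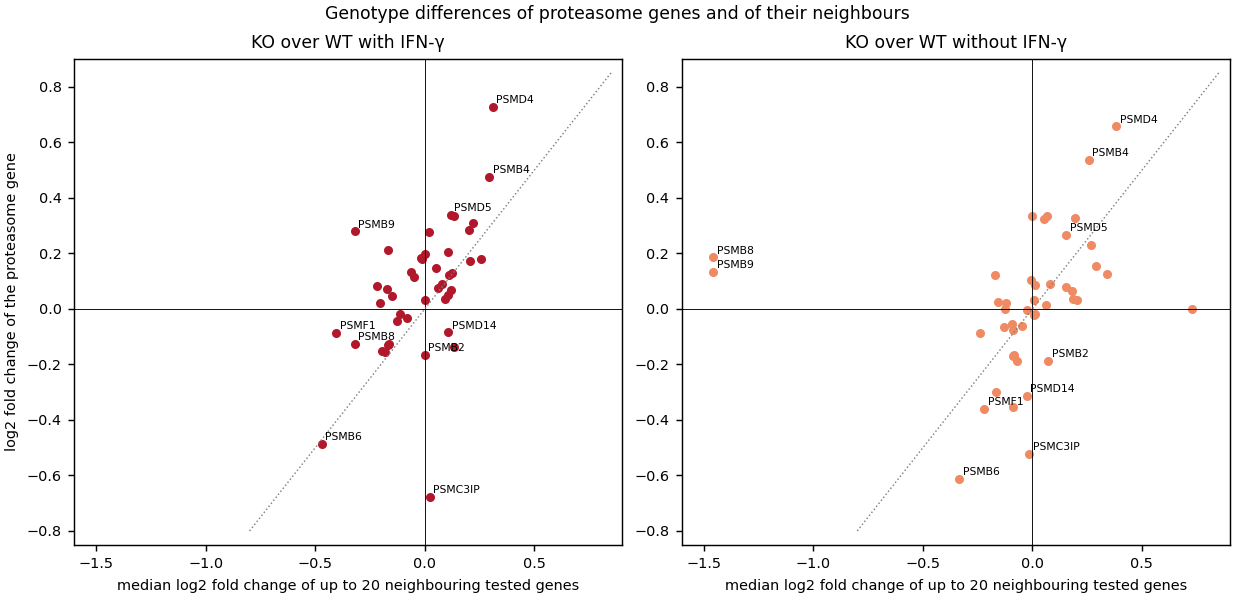
Log2 fold change of each tested proteasome gene in KO over WT cells (vertical axes) against the median of up to 20 tested neighbours, 10 a side, on the chromosome (horizontal axes; 12 for PSMB1 and 14 for PSMD13), with IFN-γ (left) and without it (right). The dotted line marks equal values; PSMD4 and PSMB4 lay above it among higher neighbours, PSMB6 lay among lower neighbours, and PSMB8 and PSMB9 lay far from their neighbours without IFN-γ.

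The IFN-γ response itself differed between the genotypes for 5 of the 44 members (4 larger and 1 smaller in KO cells), while of all genes tested 15.5% were called, 7.61% higher and 7.86% lower. PSMF1 responded more in KO cells by 0.27 in log2 units (SE 0.07, adjusted p = 0.00466, edgeR), PSMD14 by 0.23 (adjusted p = 0.0167), PSMA7 by 0.22 (adjusted p = 0.0158) and PSMA4 by 0.19 (adjusted p = 0.0222). For PSMF1, PSMD14 and PSMA7 the treated KO and WT levels were closer than the untreated ones, where KO cells were lower. The PSMD14 call was lost without the second untreated KO library or the first treated WT library (adjusted p = 0.052 and 0.0537), and the PSMA7 call without the first treated or the second untreated WT library (adjusted p = 0.0578 and 0.0605). The PSMA4 call was lost without the second untreated KO library, the second treated WT library or the third untreated WT library (adjusted p = 0.0625, 0.051 and 0.055), and the PSMF1 call held in all of these. With library totals alone the PSMA4, PSMA7 and PSMD14 calls were lost (adjusted p = 0.0848, 0.0591 and 0.0597), and smaller responses were called for PSMD3 (-0.20) and PSME1 (-0.18). PSMB3 was called with DESeq2 (0.18, adjusted p = 0.0339) and PSMC4 without untreated WT replicate 1 (adjusted p = 0.0489).

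PSMB8 responded less in KO cells, by 0.31 (SE 0.10, adjusted p = 0.0332, edgeR), and this call too was lost under several alternatives. It did not pass with DESeq2 (adjusted p = 0.235), limma-voom (adjusted p = 0.0507) and RLE size factors (adjusted p = 0.0534), or without treated KO replicate 2 or 3, treated WT replicate 1 or 2, untreated KO replicate 1 or 2 or untreated WT replicate 2 or 3 (adjusted p from 0.0553 to 0.17). Without the third untreated KO library the difference was -0.46 (adjusted p = 6.12e-06). PSMB9 (0.15, and -0.15 without the third untreated KO library), PSMB10 (-0.15), PSME1 (-0.13) and PSME2 (-0.04) were not called, nor was PSMD10 (0.36, adjusted p = 0.0501). PSMD10 was called with DESeq2, RLE size factors and the 5 CPM filter (adjusted p = 0.0316, 0.0337 and 0.0462) and without treated KO replicate 1, treated WT replicate 2, untreated KO replicate 3 or untreated WT replicate 2 (adjusted p from 0.0175 to 0.0497), PSMB10 (-0.26) without untreated WT replicate 2 (adjusted p = 0.0341), and PSMB6 (0.20) without untreated WT replicate 1 (adjusted p = 0.0444).

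How reads were assigned bears on several members. Per the file headers no strand option was used, and reads that overlap exons of 2 genes are not counted, so a member loses reads where its exons are shared. Another gene covered 75.8% of the exon bases of PSMC1 (NRDE2, other strand), 34.8% of PSMB10, 34.6% of PSMA2, 30.7% of PSMD7, 29.9% of PSMC3IP (MLX, other strand), 24.7% of PSMA1, 22.6% of PSMD9 and 21.2% of PSMB8 (PSMB8-AS1, other strand). Levels of these 8 genes are therefore uncertain.

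Reads assigned to pseudogenes, which are close copies of a gene, are counted apart from the gene itself. The rule's pattern also matched 42 pseudogenes, which were not members. Of the counts on PSMC1 and its pseudogenes, 85.9% to 88.9% a library fell on the pseudogenes, almost all on PSMC1P1 on chromosome 3, and for PSMA6 the share was 60.1% to 69.6%. For PSME2 it was 23.7% to 29.4%, for PSMA2 at most 16.1%, and for the other members with a listed pseudogene at most 1.19%. With the pseudogene counts added to the gene, an alternative chosen after seeing the data, PSMC1 was called higher in KO cells with IFN-γ (0.19, adjusted p = 0.0035) and lost its IFN-γ call in WT cells (adjusted p = 0.11). The difference of responses was then called for PSMA6 (0.53, adjusted p = 0.000159) and PSMD10 (0.36, adjusted p = 0.0468). The levels of PSMC1, PSMA6 and PSME2 are uncertain for this reason, and the IFN-γ rise of PSME2 was called either way.

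The genes whose products assemble the core or drive transcription of its subunits were mostly higher with IFN-γ. Of 11 such genes, 8 rose and 1 fell with IFN-γ in KO cells (median 0.51) and 6 rose in WT cells (median 0.32), where 29.2% of all genes rose and 31.8% fell in KO and 28.6% and 27.9% in WT cells. POMP, the chaperone that assembles the core and favours the induced one, averaged 217 ± 9.0 CPM with IFN-γ against 78.7 ± 2.97 CPM without it in KO cells (log2 fold change 1.46 with SE 0.05, adjusted p = 2.77e-22, edgeR) and 231 ± 12.6 CPM against 98.4 ± 6.37 CPM in WT cells (log2 fold change 1.23 with SE 0.05, adjusted p = 2.72e-20; SD, n = 3 each). NFE2L1, the transcription factor that raises proteasome genes when the proteasome is inhibited, rose by 1.19 in KO and 0.86 in WT cells, and NFE2L2, a relative that responds to oxidants, by 0.81 and 0.48. The responses were larger in KO cells for NFE2L1 (0.33, adjusted p = 1.43e-05), NFE2L2 (0.33, adjusted p = 0.000196) and POMP (0.23, adjusted p = 0.0206). Between genotypes, 3 of the 11 were higher and 2 lower in KO cells with IFN-γ, and 3 and 4 without it, against 22.9% higher and 24.3% lower over all genes with IFN-γ and 25.4% and 24.8% without it. Without IFN-γ POMP was lower by 0.32.

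Of 13 tested 19S subunits and partners with other symbols, 9 rose and 1 fell with IFN-γ in KO cells and 9 rose and 2 fell in WT cells. In KO cells 5 were higher and 3 lower with IFN-γ, and 2 and 4 without it, beside the shares over all genes given above. The deubiquitinase USP14 and the 19S-bound thioredoxin TXNL1 led the falls, at -0.46 and -0.29 with IFN-γ and -0.60 and -0.40 without it. The difference of responses was called higher for 2, UBQLN4 (0.27) and UBQLN1 (0.20), and lower for none (7.61% and 7.86% of all genes).

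Downstream of the proteasome, 14 of 17 tested class I peptide genes rose and 2 fell with IFN-γ in each genotype. The shares over all genes tested were 29.2% up and 31.8% down in KO cells and 28.6% and 27.9% in WT cells. Between genotypes, 12 of the 17 were higher and 3 lower in KO than in WT cells with IFN-γ, and 11 and 2 without it. Over all genes tested 22.9% were higher and 24.3% lower with IFN-γ, and 25.4% and 24.8% without it. TAP1 was higher in KO cells by 0.65 with IFN-γ and 0.85 without it, on the scattered counts given above, and NLRC5, the activator of class I genes, by 0.50 and 1.04 (adjusted p = 5.63e-12 and 1.44e-18, edgeR). NLRC5 was 1 of 5 among the 17 that responded less in KO cells (-0.54), against 1 that responded more (7.86% and 7.61% of all genes). Of 12 genes of the IFN-γ receptor and its signal, 10 rose and 1 fell in each genotype, and 9 were higher in KO cells in each condition, with 2 lower with IFN-γ and 1 lower without it, beside the same shares over all genes. IRF1, a transcription factor that activates the induced subunits, was higher in KO cells by 0.22 with IFN-γ and 0.70 without it. Its response was smaller in KO cells (-0.47), and 6 of the 12 genes responded less and 1 more, against 7.86% and 7.61% of all genes.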

How the data were processed

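The deposited table held 1 whole-number count per gene and library, made by the authors with featureCounts 2.0.3 on exons of hg38, per the file headers, with no strand option and with mates counted separately (70.4% to 73.3% of counts from 1 to 19 were even). Reads over exons of several genes are left out, and a read that aligns to several places counts once. The submitters' processing notes also name fastp 0.23.2 and STAR 2.7.10b; the aligner's role and the annotation release: not given in the sources used here. Per the labels' protocols the libraries were stranded and poly(A)-selected.

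From these counts, genes were filtered with filterByExpr and fitted over all 12 libraries in edgeR 4.0.16 (TMM, quasi-likelihood test, Benjamini-Hochberg adjustment over 17119 genes, threshold 0.05), after a test on simulated data. The CPM values and all log2 fold changes were derived from them. Exact permutation tests (two-sided) were used for the ratios. Alternatives were DESeq2 1.42.0, limma-voom (limma 3.58.1), other scalings and filters, the compared libraries alone, the replicate block and each library left out. The members and gene lists were chosen with earlier results of these data known. Some genes of these lists are not reported here by name. Every member is named, and values per library are given for the 11 subunits with induced or partner roles and the 3 largest calls each way at 5 CPM or more.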

Additional observations from a re-analysis of the deposited data

Results flagged for a closer look

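The IFN-γ responses of 5 of the 44 tested members differed between KO and WT cells by the test of the difference itself (edgeR's quasi-likelihood test, adjusted over all genes tested). Of all genes tested 15.5% were called, 7.61% higher and 7.86% lower. The difference, KO minus WT on the log2 scale, was 0.27 for PSMF1, 0.23 for PSMD14, 0.22 for PSMA7 and 0.19 for PSMA4, so that these rose more in KO cells. It was -0.31 for PSMB8, which rose less in KO cells. The PSMB8 call was lost with DESeq2 (adjusted p = 0.235), limma-voom (adjusted p = 0.0507) and RLE size factors (adjusted p = 0.0534). Leaving out single libraries ended the calls of PSMB8, PSMD14, PSMA7 and PSMA4, as given above. No group had more than 3 libraries, so no library was screened as standing apart.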

How the results depend on the processing

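Of 4786 values of single genes under alternatives, 4455 kept their direction and side of the threshold, 97 that were called in neither fit turned sign, 154 lost the call, 51 gained one and 29 with a call in at least 1 fit turned sign. Scaling by library totals alone accounted for 28 of those 29, and upper-quartile scaling for 1 (PSMD4 in KO cells, -0.0049). With library totals alone the IFN-γ response in KO cells was -0.0904 for PSMB4, -0.14 for PSMB5, -0.0517 for PSMC6, -0.24 for PSMD1, -0.18 for PSMD4, -0.10 for PSMD6, -0.0453 for PSMD7, -0.0448 for PSMD8, -0.16 for PSMD11, -0.0798 for PSMD13, -0.25 for PSMD5, -0.0060 for PSMD10, -0.14 for PSME3 and -0.0136 for PSME3IP1. In WT cells it was -0.0288 for PSMA7, -0.19 for PSMB5, -0.0826 for PSMC6, -0.22 for PSMD1, -0.21 for PSMD4, -0.22 for PSMD3, -0.16 for PSMD6, -0.0673 for PSMD7, -0.15 for PSMD8, -0.25 for PSMD11, -0.15 for PSMD13, -0.0560 for PSMD14, -0.12 for PSME3 and -0.0204 for PSME3IP1. With library totals alone, rises that kept their sign but lost the call in KO cells were those of PSMC3 and PSME4. In WT cells they were those of PSMA1, PSMB4, PSMB7, PSMC1, PSMC3, PSMC4, PSMD12 and PSME4 (adjusted p from 0.0505 to 0.974, edgeR). That scaling moved the median gene by -0.30 in KO and -0.25 in WT cells, and upper-quartile scaling by -0.12 and -0.11.

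With library totals alone, 8 members were higher in KO than WT cells with IFN-γ. With IFN-γ 22 rose and 12 fell in KO and 16 rose and 14 fell in WT cells, and the difference was called higher for 1 and lower for 3. DESeq2, RLE size factors and no filter left 1 fall with IFN-γ in KO cells, and DESeq2, limma-voom and RLE size factors left 0 smaller responses. Leaving out 1 library gave 3 to 8 members lower in KO cells with IFN-γ, 1 to 3 falls in KO cells, 2 to 6 larger and 0 to 1 smaller responses. The cause of these changes was not tested, beyond the fewer samples where a library is left out.

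Deviations from the group means correlated at -0.149 to 0.252 between same-numbered libraries and at -0.175 to 0.240 between differently numbered ones. With 3 libraries a group these values cannot decide whether a number marks a shared culture or day, which the labels do not state. With the replicate block 14 members were higher and 7 lower in KO cells with IFN-γ, 10 and 10 without it, 36 rose and 2 fell with IFN-γ in KO cells, 30 and 3 in WT cells, and the difference was called for 4 and 1. Low counts limit the precision of PSMA2 (36 to 116 counts a library) and PSMC3IP (30 to 211).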

Other observations

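Other short elements were searched in the same promoter windows, on both strands. The letters TGACNNNGC, a short form of the antioxidant response element that NFE2L1 and NFE2L2 bind, were in windows of 13 of the 41 members with a window (31.7%), against 16.1% of all symbols: PSMA4, PSMB3, PSMB9, PSMC4, PSMC5, PSMD1, PSMD3, PSMD5, PSMD9, PSMD12, PSME1, PSME2 and PSME4. A form of the NF-kappa B element, GGGA followed by any base and TTTCC, was in 0 of 41, against 0.678% of all symbols. These are counts of letters in windows, and nothing follows from them about binding.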
